A study of Mus musculus with 32 samples.

Results

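RNA levels of the 44 collagen genes, among 24028 gene symbols measured, were compared between mouse embryonic stem cells (mESCs) of WT, or wild-type, genotype and mESCs labelled Eed-/-, that is, without Eed, a subunit of PRC2, the Polycomb complex that deposits H3K27me3. The genes were taken by symbol (Col, a number, a, a number) and include 6 basement membrane genes (Col4a1 to Col4a6), 11 fibrillar genes and 27 others. Collagens are secreted or membrane proteins in which glycine recurs at a fixed step along each chain, and the chains wind into a triple helix. Type IV collagen forms the network of basement membranes, the sheets on which epithelia rest and the first extracellular matrix of the mouse embryo. Fibrillar collagens build the cables of connective tissue, cartilage and bone, and the remaining families coat fibrils, bridge basement membranes to the tissue below, or sit in the cell membrane.

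Each genotype had 1 RNA-seq library, made from total RNA of cells grown with serum and leukemia inhibitory factor on gelatin, and the labels name no treatment. The labels give the strain TT2 for both libraries, whereas Eed-/- samples of the other assays carry another strain name, and the mutation of the Eed-/- cells in the RNA-seq library is not given in the sources used here. The Eed transcript itself had a deposited FPKM, a count of fragments scaled to transcript length and library size, of 63.0 in WT and 70.9 in the other library. It was thus not lower where the label says knockout, and that library is called the library labelled Eed-/- throughout. A transcript level does not tell whether Eed protein was present. The paper checked the loss of Eed in its Eed-/- mESCs through H3K27me3, by western blot and by ChIP-seq. With 1 library per genotype no test was possible, and each difference below compares these 2 libraries and not the conditions. The depth, recovered from the spacing of low FPKM, was about 7240000 fragments for WT and 6470000 for the library labelled Eed-/-. Intervals given with them are exact 95% intervals for counting error only and leave out the spread between cultures. PCR copies cannot be told from separate molecules, so these intervals are if anything too narrow.

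The libraries were checked for pluripotent cells first. Pou5f1, the central pluripotency factor, had an FPKM of 393 in WT against 373 in the library labelled Eed-/-, and Dppa5a, a marker of undifferentiated cells, had 250 and 372. All 11 pluripotency markers had values in both libraries, and 1 of them, Zfp42, was over 2-fold higher (131 in WT against 272), against 3.8% of all genes tested. Klf4 (25.5 in WT against 44.4) lay just under 2-fold. On the log2 scale defined below, 8 of the 11 had changes above 0 and 3 below, with a median change of 0.35.

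Promoter sequences are shown for 4 genes whose RNA levels carry the comparison. Col4a1, Col4a2 and Col9a2 were the collagen genes that reached a 2-fold higher value in the library so labelled, and Col18a1 had the highest level of all and went the other way. Sequences are from RefSeq on GRCm38.p6, read on the strand of the gene from 250 bases before its start to 50 after. Capitals mark the CCAAT box (CCAAT or ATTGG), the GC box (GGGCGG or CCGCCC) and the TATA box (TATAAA or TTTATA), where these letters occur on either strand. The windows lie at chr8:11312777-11313076 on the minus strand for Col4a1 and at chr8:11312555-11312854 on the plus strand for Col4a2. Those of Col9a2 and Col18a1 lie at chr4:121039316-121039615 on the plus strand, and at chr10:77166481-77166780 and chr10:77113656-77113955 on the minus strand, as Col18a1 has 2 starts in this table.
Col4a1: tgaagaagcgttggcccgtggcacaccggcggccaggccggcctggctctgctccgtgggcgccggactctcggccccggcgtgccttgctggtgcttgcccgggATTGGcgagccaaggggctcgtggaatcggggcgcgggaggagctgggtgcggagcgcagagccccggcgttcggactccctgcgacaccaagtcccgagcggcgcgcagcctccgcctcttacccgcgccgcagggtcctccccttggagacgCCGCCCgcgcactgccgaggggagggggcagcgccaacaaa
Col4a2: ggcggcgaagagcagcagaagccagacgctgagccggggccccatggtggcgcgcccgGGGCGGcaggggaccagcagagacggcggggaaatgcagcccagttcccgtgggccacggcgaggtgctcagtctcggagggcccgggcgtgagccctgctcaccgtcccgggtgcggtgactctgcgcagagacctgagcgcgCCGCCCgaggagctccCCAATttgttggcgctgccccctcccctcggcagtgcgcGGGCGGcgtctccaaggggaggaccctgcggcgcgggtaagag
Col9a2: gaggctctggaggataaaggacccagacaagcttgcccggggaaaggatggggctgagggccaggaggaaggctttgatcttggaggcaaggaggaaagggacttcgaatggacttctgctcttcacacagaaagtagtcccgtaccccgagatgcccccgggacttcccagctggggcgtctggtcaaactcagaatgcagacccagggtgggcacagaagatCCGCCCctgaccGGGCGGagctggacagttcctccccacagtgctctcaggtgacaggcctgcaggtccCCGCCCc
Col18a1, upstream start: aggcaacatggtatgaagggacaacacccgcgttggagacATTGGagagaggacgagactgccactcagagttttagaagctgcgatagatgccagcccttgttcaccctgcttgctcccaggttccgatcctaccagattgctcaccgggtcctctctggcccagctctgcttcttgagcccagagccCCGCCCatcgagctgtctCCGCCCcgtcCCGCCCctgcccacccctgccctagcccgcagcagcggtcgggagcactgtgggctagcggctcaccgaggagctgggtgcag
Col18a1, downstream start: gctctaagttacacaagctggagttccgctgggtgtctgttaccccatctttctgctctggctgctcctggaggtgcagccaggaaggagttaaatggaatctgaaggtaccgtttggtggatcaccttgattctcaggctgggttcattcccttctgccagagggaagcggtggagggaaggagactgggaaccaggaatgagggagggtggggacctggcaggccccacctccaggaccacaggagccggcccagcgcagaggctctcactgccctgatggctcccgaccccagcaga

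The Col4a1 and Col4a2 windows share 78 bases, from 11312777 to 11312854 of chromosome 8, because the genes are transcribed away from each other from starts annotated 21 bases apart. Both windows were rich in CpG, with 37 CpG dinucleotides for Col4a1 and 33 for Col4a2, against 10 for Col9a2, 16 for the upstream start of Col18a1 and 6 for the downstream one. A GC box occurred once for Col4a1 and 3 times each for Col4a2, Col9a2 and the upstream start of Col18a1. None of the 5 windows held the letters of the TATA box. Among 38 windows of the 35 collagen genes in the table, 23 (60.5%) held a GC box, against 35.7% of 32851 windows of all genes. The CCAAT box was found in 34.2% of collagen windows and 37.4% of all windows, and the TATA box in 13.2% and 13.6%. These are matches of letters, not sites of binding. Collagen genes with an FPKM of at least 1 in either library had 9 windows. Their median observed over expected CpG ratio was 0.81, against 0.41 for the 29 windows of other collagen genes and 0.38 for all windows. A ratio of at least 0.6 was found in 5 of these 9, among them the overlapping Col4a1 and Col4a2 windows, and in 35.8% of all windows. The ratio was 0.54 and 0.23 for the upstream and downstream starts of Col18a1, 0.35 for Col9a2 and 0.33 for Col11a1. The 9 collagen genes with no window were Col1a1, Col2a1, Col4a3, Col5a2, Col9a3, Col12a1, Col14a1, Col22a1 and Col26a1.

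Most collagen genes were at low levels in both libraries. A deposited FPKM of at least 1 was reached by 6 collagen genes in WT and by 8 in the library labelled Eed-/-. The 6 genes in WT were Col18a1, Col4a1, Col4a2, Col9a2, Col13a1 and Col5a1, and Col11a1 and Col8a2 joined them in the library labelled Eed-/-. The other 36 genes were under an FPKM of 1 in both. Col15a1, Col19a1, Col20a1 and Col25a1 were listed at 0 in both libraries, which allows up to 3 fragments in each. In bulk RNA, fewer cells that express a gene and less RNA per cell cannot be told apart.

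**Figure D1:**
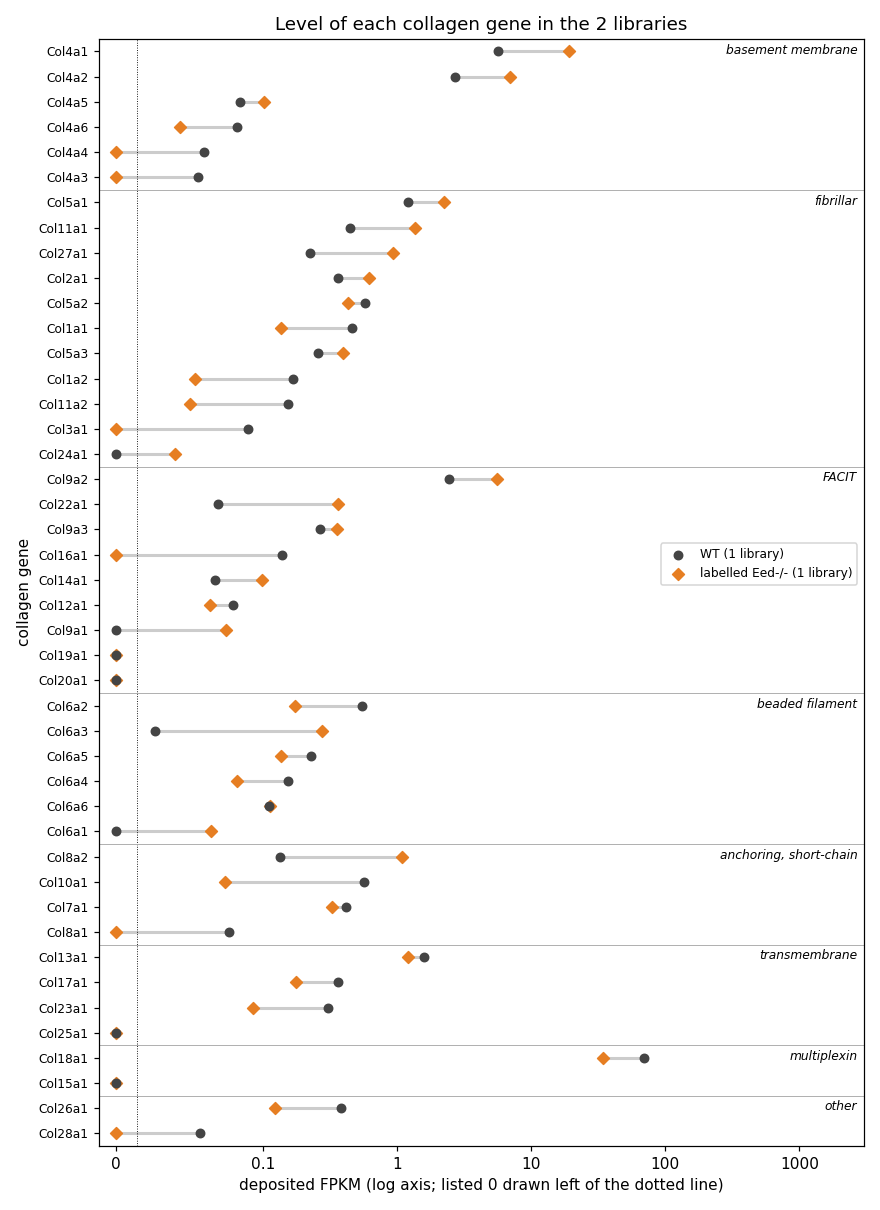
Deposited FPKM (log axis) of the 44 collagen genes by family, with 1 point per library; values listed as 0 are drawn left of the dotted line. Col18a1 lies highest in both libraries, Col4a1 and Col4a2 lie to the right of the other type IV genes, and 36 genes stay under 1 in both.

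By family, the summed level was led by the multiplexins, collagens with an interrupted helix in basement membrane zones, because of Col18a1 alone. The 6 type IV genes together had a summed FPKM of 8.50 in WT against 26.2 in the library labelled Eed-/-, which is 9.51% and 34.0% of the FPKM of all collagen genes. The 11 fibrillar genes had sums of 3.93 and 6.18. FACIT collagens, which attach to the surface of fibrils, had sums of 2.98 and 6.47. The multiplexins had 69.1 and 34.4, which is 77.3% and 44.6% of the total. Without Col18a1, the sum of the other collagen genes was 20.3 in WT against 42.7 in the library labelled Eed-/-. The total over all 44 genes was 89.4 and 77.1.

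**Figure D2:**
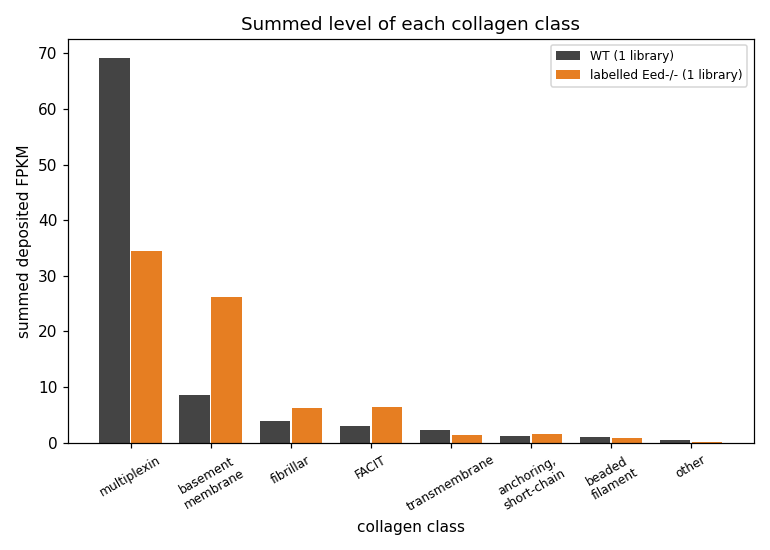
Summed deposited FPKM of each collagen class in the 2 libraries, with 1 bar per library and no error, as each genotype has 1 library. The multiplexin bar is shorter in the library labelled Eed-/- (34.4 against 69.1), and the basement membrane bar is taller (26.2 against 8.50).

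For the comparison of single genes, values were quantile-normalized, and the change is the difference in log2(FPKM + 1), the library labelled Eed-/- minus WT. On this scale low values give small changes. A gene entered if its normalized FPKM averaged 0.1 or more, which 25 of the 44 collagen genes did. A change of 2-fold or more was seen for 3 collagen genes, against 7.78% of all 14835 genes that passed the same filter. All of these (Col4a1, Col4a2 and Col9a2) had the higher value in the library labelled Eed-/-, against 3.8% of all genes, and 0 had the lower value there, against 3.98%. With a pseudocount of 0.01 in place of 1, which weighs low values more, 8 collagen genes were higher, against 12.9% of all genes, and 7 were lower, against 13.4%. The median change of the 25 genes was -0.01, and that of all genes was 0.01. Of these 25 genes, 24 kept their direction when the FPKM were used as deposited or scaled by median ratios, and Col6a6 (-0.01) did not.

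**Figure D3:**
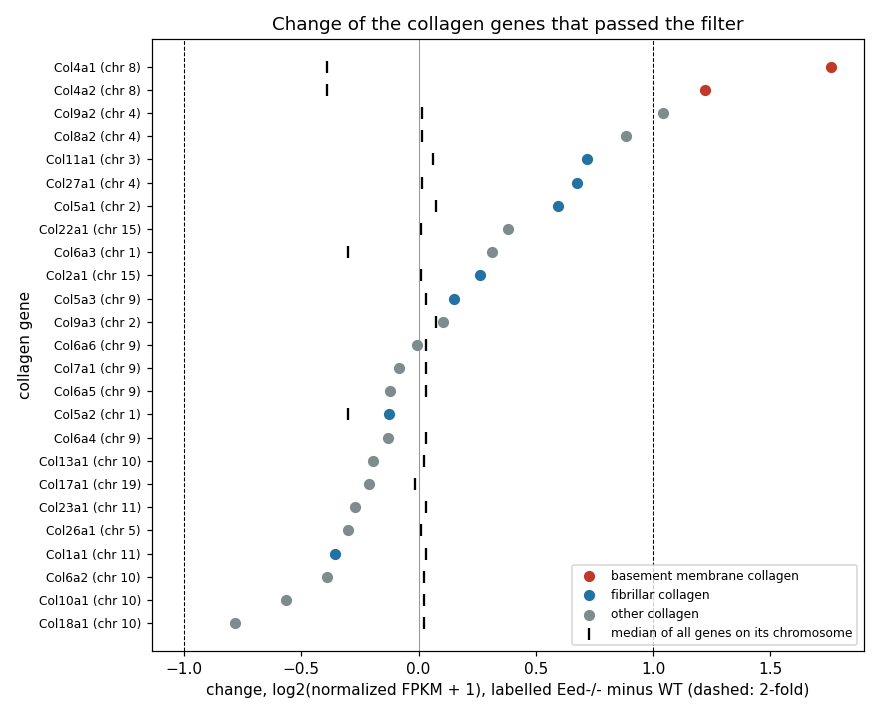
Change of the 25 collagen genes that passed the filter, on the log2(normalized FPKM + 1) scale, with 1 point per gene and a black tick at the median change of all genes on the same chromosome. Col4a1, Col4a2 and Col9a2 lie past the 2-fold line on the right, and no gene lies past it on the left.

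Col4a1 and Col4a2 encode the chains of the common basement membrane network. The deposited FPKM of Col4a1 (mm9, chromosome 8, 11198423 to 11312826) was 5.62 in WT against 19.1 in the library labelled Eed-/-, from about 262 and 795 fragments, and its change was 1.76. The FPKM ratio was 3.40 (interval 2.95 to 3.92). Col4a2 (chromosome 8, 11312805 to 11449287) had values of 2.68 and 6.97 from about 122 and 283 fragments, with a change of 1.22 and a ratio of 2.60 (2.09 to 3.24). Col4a1 thus lay above 71.7% of all symbols in level in WT and above 87.7% in the library labelled Eed-/-, and Col4a2 above 63.8% and 75.8%. The 757 tested genes of chromosome 8 had a median change of -0.39, against 0.01 for all genes. Measured from that median, the changes were 2.15 for Col4a1 and 1.61 for Col4a2.

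The trimer made by this pair holds more alpha1 than alpha2 chains. The ratio of Col4a1 to Col4a2 in FPKM, which is per length, was 2.09 in WT (interval 1.68 to 2.62) and 2.74 in the library labelled Eed-/- (2.39 to 3.15). Both libraries thus held more Col4a1 than Col4a2 RNA beyond counting error, and the intervals of the 2 libraries overlapped. The difference in chain ratio itself was not tested.

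The 4 remaining type IV genes encode chains of specialised basement membranes, such as that of the kidney glomerulus, and lie in 2 further head-to-head pairs. None of them passed the filter. Col4a3 and Col4a4 (chromosome 1, with 71 bases between the genes) each had about 2 fragments in WT and were listed at 0 in the library labelled Eed-/-. Col4a5 had about 3 fragments in WT against 4 in the library labelled Eed-/-, and its neighbour Col4a6 had 3 and 1. Both lie on chromosome X, where the median change was 0.46 over 543 genes. Of the 3 head-to-head pairs, only the Col4a1 and Col4a2 pair was above an FPKM of 1 in either library. The median change of 1.49 for type IV genes rests on that pair alone and is -0.013 over all 6 genes with no filter.

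Of the 11 fibrillar genes, 7 passed the filter, with 0 past 2-fold and a median change of 0.26. Col5a1, the main chain of type V collagen, which starts and limits fibrils, was the highest, at an FPKM of 1.20 in WT against 2.22 in the library labelled Eed-/- (71 and 118 fragments, change 0.60, ratio 1.86 with interval 1.37 to 2.53). Its partner chain Col5a2 had values of 0.581 and 0.434 (27 and 18 fragments), a ratio of 0.746 (0.387 to 1.41). The Col5a1 to Col5a2 ratio was 2.06 in WT (1.31 to 3.34) and 5.13 in the library labelled Eed-/- (3.11 to 8.97), and these intervals overlapped slightly. Such overlap does not show equal ratios, and the difference between the libraries in this ratio was not tested. Col5a2 lies on chromosome 1, whose median change was -0.30, and its change of -0.13 becomes 0.17 when measured from that median.

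Col11a1, a minor chain of cartilage fibrils related to Col5a1, had an FPKM of 0.449 in WT against 1.35 in the library labelled Eed-/- (24 and 66 fragments). Its change was 0.72 and its ratio 3.02 (interval 1.90 to 5.14). Col27a1, a fibrillar collagen of developing cartilage, had values of 0.223 and 0.936 (12 and 45 fragments), a ratio of 4.19 (2.18 to 8.71). Both were higher beyond counting error, and neither reached 2-fold on the log2(FPKM + 1) scale.

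The main collagens of bone, skin and tendon were at low levels, with more fragments in WT. Col1a1 had an FPKM of 0.460 in WT against 0.137 in the library labelled Eed-/- (19 and 5 fragments), a WT value 3.35 times the other (1.23 to 11.6). Col1a2 had about 6 fragments in WT against 1 in the library labelled Eed-/-, and Col3a1 had 3 and 0. Col2a1, the main collagen of cartilage, is the only collagen symbol in the study's list of genes at DNA methylation valleys of mESCs. Its FPKM was 0.364 in WT against 0.620 in the library labelled Eed-/- (13 and 20 fragments), and the interval of its ratio, 0.815 to 3.77, held 1. Col5a3 had 11 and 15 fragments, Col11a2 had 7 and 1, and Col24a1 had 0 and 1.

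Col9a2, a chain of the FACIT type IX collagen of cartilage (chromosome 4, 120711990 to 120727927), had an FPKM of 2.43 in WT against 5.55 in the library labelled Eed-/-. About 48 and 99 fragments gave a ratio of 2.29 (1.62 to 3.33) and a change of 1.04, just past the threshold, and it was 0.94 with the FPKM as deposited. Its partner chains were far lower. Col9a1 had 0 fragments in WT against 1 in the library labelled Eed-/-, and Col9a3 had 6 and 7, so the FPKM of Col9a2 was 9.11 times that of Col9a3 in WT and 15.5 times in the library labelled Eed-/- (intervals 3.57 to 23.9 and 6.91 to 37.7). Col22a1, a FACIT collagen of tissue junctions, had about 3 fragments in WT against 20 in the library labelled Eed-/-, a ratio of 7.83 (2.21 to 39.2). Col12a1, Col14a1 and Col16a1 had at most 5 fragments in either library.

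Col6a1, Col6a2 and Col6a3 encode chains of type VI collagen, the beaded filament of most connective tissues. Their values went in different directions. Col6a2 had about 18 fragments in WT against 5 in the library labelled Eed-/-, whereas Col6a3 had 1 and 15, and Col6a1 had 0 and 1. The FPKM ratio of Col6a2, WT over the library labelled Eed-/-, was 3.13 (1.15 to 11.1), and that of Col6a3 in the reverse direction was 17.6 (2.58 to 707), a wide interval because it rests on 1 fragment in WT. The genes Col6a4, Col6a5 and Col6a6, neighbours on chromosome 9, had 8, 15 and 6 fragments in WT and 3, 8 and 5 in the library labelled Eed-/-, and the intervals of all of their ratios held 1.

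Col8a2, a short-chain collagen of the basement membrane under the corneal endothelium, had an FPKM of 0.133 in WT against 1.08 in the library labelled Eed-/-. About 4 and 29 fragments gave a ratio of 8.12 (2.85 to 31.8), and the change was 0.89. Its partner Col8a1 had 2 and 0 fragments. Col10a1, the collagen of hypertrophic cartilage, went the other way, from an FPKM of 0.563 in WT to 0.0525 in the library labelled Eed-/- (12 and 1 fragments). It lies within Nt5dc1, a coding gene on the opposite strand that had an FPKM of 3.76 in WT against 1.34 in the library labelled Eed-/-. The libraries are strand-specific, but whether strand was used in quantification is not given, and the part of Nt5dc1 in the Col10a1 values was not tested. Col7a1, which anchors skin basement membranes, had 27 and 19 fragments, and the interval of its ratio, 0.414 to 1.47, held 1.

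Transmembrane collagens were low in both libraries. Col13a1, found at cell adhesions, had an FPKM of 1.58 in WT against 1.20 in the library labelled Eed-/- (34 and 23 fragments, change -0.20). Col17a1, a part of hemidesmosomes, had 14 and 6 fragments, and Col23a1 had 12 and 3. For all of these, the ratio's interval held 1.

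Col18a1 (chromosome 10, 76514923 to 76629293) encodes the basement membrane collagen whose end is released as endostatin. It was the highest collagen gene, with an FPKM of 69.1 in WT against 34.4 in the library labelled Eed-/-, about 3083 and 1370 fragments. The WT value was 2.01 times the other (interval 1.89 to 2.14). The change of -0.78 did not reach 2-fold after normalization, and it was -0.99 with the FPKM as deposited. Col18a1 overlaps Slc19a1, a coding gene on the opposite strand, by 8825 bases, and Slc19a1 had an FPKM of 7.73 in WT against 9.90 in the library labelled Eed-/-. Among collagens of the basement membrane, the FPKM of Col4a1 and Col4a2 was thus higher, and that of Col18a1 lower, in the library labelled Eed-/-. Of the remaining genes, Col26a1 had 7 and 2 fragments and Col28a1 had 1 and 0.

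Ratios were also read against counting error for the 24 collagen genes with at least 10 fragments in all, a rule set after the values were seen. The interval lay above 1 for 9 genes and below 1 for 4, and it held 1 for 11. The 9 higher genes were Col4a1, Col4a2, Col5a1, Col11a1, Col27a1, Col9a2, Col22a1, Col6a3 and Col8a2, and the 4 lower genes were Col18a1, Col1a1, Col6a2 and Col10a1. Among all 12616 genes with that many fragments, 19.7% had an interval above 1 and 34.5% below 1, so differences beyond counting error were common in these libraries. These ratios use the FPKM as deposited, in which the median change of all genes was -0.09.

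**Figure D4:**
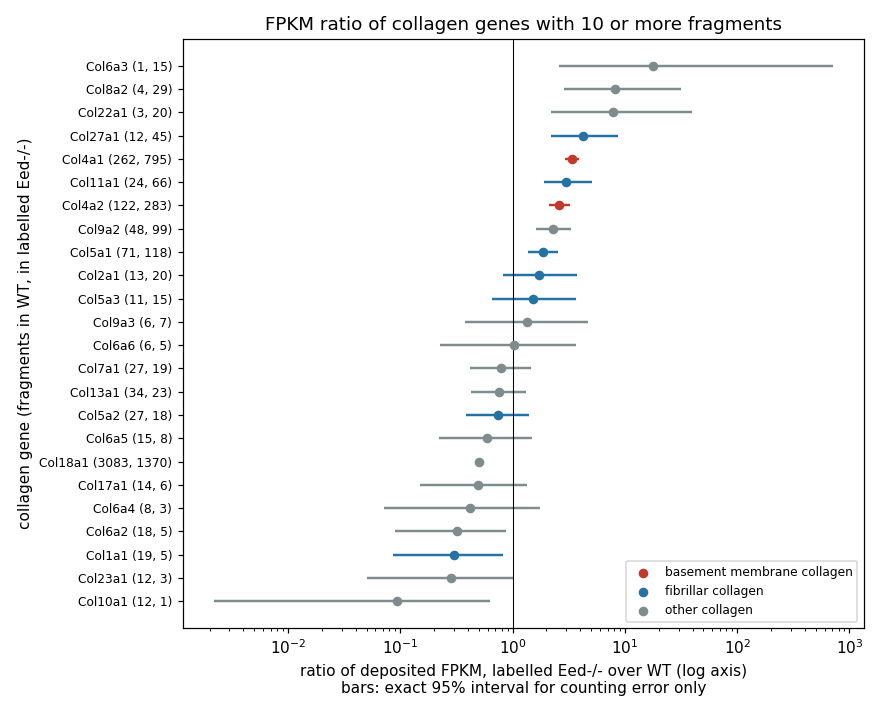
Ratio of deposited FPKM, library labelled Eed-/- over WT (log axis), for the 24 collagen genes with at least 10 fragments in all; bars are exact 95% intervals for counting error only, and the fragments in both libraries stand beside each name. The intervals of Col4a1 (2.95 to 3.92) and Col18a1 (0.466 to 0.530) are narrow, and those of genes with few fragments span more than 10-fold.

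Collagen needs a set of enzymes and chaperones in the endoplasmic reticulum, and these were examined as lists chosen by function. For this and the following lists, the shares over all 14835 genes tested were 3.8% higher and 3.98% lower by 2-fold or more. Of 21 genes for chain modification and folding, 18 passed the filter, 0 were higher by 2-fold or more, 1 was lower, and the median change was 0.06. P4hb, a subunit of prolyl 4-hydroxylase, had an FPKM of 252 in WT against 371 in the library labelled Eed-/-, and Ppib, a proline isomerase of the same compartment, had 162 and 175. Fkbp10, a chaperone of fibrillar procollagen, had 11.4 and 3.32, a change of -1.41. Serpinh1, the collagen-specific chaperone HSP47, had 31.3 and 14.4, a change of -0.91, and is named because of its role after its value was seen.

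Of 15 genes for processing and crosslinking, 13 passed the filter, 1 was higher and 1 lower, with a median change of 0.03. The pair that stood out enhances the removal of the C-terminal propeptide of procollagen. Pcolce2 had an FPKM of 11.1 in WT against 30.9 in the library labelled Eed-/- (change 1.57), whereas Pcolce had 37.9 and 16.1 (change -1.02). Sparc, a collagen-binding matrix protein, had 71.9 and 67.9.

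Of 10 collagen receptors, 5 passed, with a median change of -0.19. The receptor kinase Ddr1, which collagen activates, had an FPKM of 7.80 in WT against 2.95 in the library labelled Eed-/-, a change of -1.04, and was the only one past 2-fold. Itgb1, the beta chain shared by collagen-binding integrins, had 49.1 and 37.0. Of the 5, only Ddr2, the other collagen receptor kinase, had a change above 0, with an FPKM of 0.0513 in WT against 0.822 (about 3 and 43 fragments, change 0.80), and it is named after its value was seen. Of 13 genes for collagen degradation and its inhibitors, 9 passed and the median change was -0.28. The 2 past the threshold, both higher, encode inhibitors of matrix metalloproteases. Timp1 had 7.57 in WT against 29.2 in the library labelled Eed-/- (change 1.99) and lies on chromosome X, where the median change was 0.46. Timp4 was listed at 0 in WT against 1.38 in the library labelled Eed-/-, from about 11 fragments. The other inhibitors went in different directions. Timp3 had 1.66 and 2.79 (change 0.57), and Timp2 had 1.13 and 0.405 (about 29 and 9 fragments, change -0.58). The membrane protease Mmp14 had 5.55 and 2.12, a change of -0.98.

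The partners of type IV collagen in basement membranes are laminins, nidogens and heparan sulfate proteoglycans. Of 15 such genes, 13 passed, and the median change was 0.19. By 2-fold or more, 2 were higher, against 3.8% of all genes, and 0 were lower, against 3.98%. Lama1, the laminin alpha chain of the first embryonic basement membranes, had an FPKM of 8.25 in WT against 33.5 in the library labelled Eed-/-, and Nid1, which links laminin to type IV collagen, had 8.36 and 21.2. Lamc1 had 62.1 and 61.2, and Nid2 had 36.7 and 36.9, so these latter components had nearly equal levels in both libraries.

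**Figure D5:**
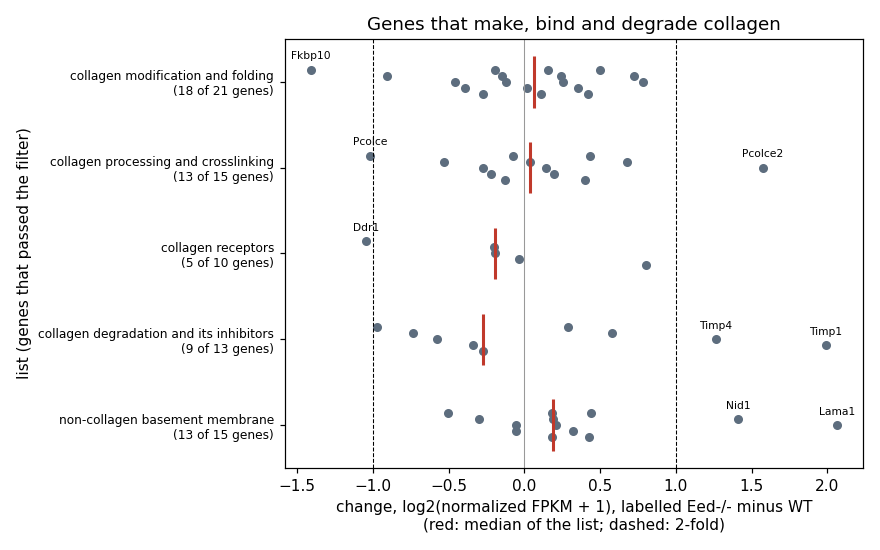
Change on the log2(normalized FPKM + 1) scale of genes that make, process, bind and degrade collagen or accompany it in basement membranes, with 1 point per gene that passed the filter and a red line at the median of each list. Medians lie between -0.28 and 0.19, and genes past 2-fold are named.

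Type IV collagen is made in large amounts by primitive and parietal endoderm, and fibrillar collagens by fibroblasts, so markers of these cells were measured. Over all genes tested, 3.8% were higher by 2-fold or more and 3.98% lower. For 13 endoderm markers, the summed FPKM was 24.9 in WT against 20.2 in the library labelled Eed-/-. Of the 12 that passed the filter, 8 had changes above 0 and 4 below, with a median change of 0.36. Cited1 was over 2-fold higher (2.54 and 6.10, about 17 and 36 fragments) and lies on chromosome X, where the median change was 0.46. The keratin Krt18 was over 2-fold lower (12.1 and 4.69), and Krt8 had 6.88 and 3.53. These 2 keratins had the highest levels of the list in WT, so the sum follows them, whereas most of the other markers had changes above 0. The lineage regulators Gata4, Gata6, Sox7 and Sox17, named after their values were seen, were low but higher in the library labelled Eed-/-. None of them reached 2-fold on this scale. Gata4 had an FPKM of 0.431 in WT against 1.35, Gata6 had 0.184 against 0.514, Sox7 had 0.314 against 1.15, and Sox17 was listed at 0 against 0.449. Pdgfra (FPKM 0.196 in WT, then 0.534), Thbd (0.117, then 0.526) and Dab2 (0.499, then 0.515) also had changes above 0. Plat (0.823, then 0.395) and Srgn (0.724, then 0.408) had changes below 0. Foxa2 did not pass the filter: its WT value of 0.0731 rests on a single fragment, and its other value was 0. Of 8 visceral endoderm markers, Afp, Ttr and Apoa1 were listed at 0 in both libraries. The list summed to 6.89 and 4.51, with 0 genes past 2-fold and a median change of 0.08 over the 5 that passed. The 2 highest, Trf (3.66 and 2.16) and Rbp4 (2.38 and 0.824), had changes below 0, and the other 3, Cubn (0.162 and 0.584), Apob (0.141 and 0.327) and Amn (change 0.08, about 6 fragments in each library), had changes above 0. For 14 fibroblast and feeder markers the sums were 7.80 in WT against 17.2 in the library labelled Eed-/-, 8 passed, and the median change was 0.51. Thy1 was over 2-fold higher (0.976 and 6.97) and Fbln1 had 3.48 and 4.63, while Dcn, Fap and Twist2 were listed at 0 in both. Twist1 (1.24 and 2.88, about 13 and 27 fragments) and Fbn1 (0.442 and 1.37, about 38 and 105) also had changes above 0. So did Cd44 (about 4 and 10 fragments) and S100a4 (0 and 1). Of the 8 that passed, 6 had changes above 0 and 2 below, namely Acta2 (1.10 and 0.0648, about 13 and 1 fragments, change -0.97) and Pdgfrb (0.424 and 0.296). The part of such cells in the collagen values was not tested.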

How the data were processed

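The authors prepared strand-specific libraries from ribosomal RNA-depleted total RNA, aligned the reads to mm9 by TopHat and estimated expression by Cufflinks. The submitters' processing notes name TopHat2 2.0.11 and Cufflinks 2.2.1, whereas the methods name another TopHat version. The deposited values are FPKM for each gene symbol, in 24525 lines per library. No annotation, strand setting or scaling of the deposited values between libraries is given in the sources used here. For a figure, the study applied quantile normalization and a log transform to the FPKM of both genotypes. Of the 32 samples, the 2 RNA-seq libraries were analysed.

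Repeated lines of a symbol (268 symbols) were added up, none of them a collagen gene. FPKM were quantile-normalized, with listed zeros kept at 0. Changes are differences in log2(FPKM + 1) for genes whose normalized FPKM averaged 0.1 or more. The collagen genes and gene lists were chosen with earlier results of these data known. All collagen genes were named, with full values for those at a normalized FPKM of at least 1 in either library or past 2-fold. Of the other lists, genes past 2-fold (at most 6) and the 2 highest were named. Values of further collagen genes and of further genes of the lists were added after they were seen.

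Positions and lengths came from GENCODE vM1 on NCBIM37 (mm9), where all 44 genes matched by symbol or, for Col26a1, by its older name Emid2. Depth was the total at which low FPKM of 5345 genes with 1 transcript came nearest to whole fragments, with 180 bp taken off each length. Then 78.2% of 1019 low values in WT and 79.2% of 1125 in the library labelled Eed-/- lay within 0.1 of a whole number. Fragment numbers used the longest coding transcript and are approximate for genes with several. Of 58 collagen values under 30 fragments, 36 lay within 0.1 of a whole number. Ratio intervals are exact Clopper-Pearson intervals on rounded fragments. No collagen coding transcript had a near-identical copy (80% of its length at 95% identity) among coding transcripts of other genes (minimap2 2.31). The computations were tested on simulated data. Scripts ran in Python 3.11.15 with scipy 1.17.1, pandas 2.3.3, numpy 2.4.6 and, for plots, matplotlib 3.10.9.

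Alternative settings were no scaling, scaling by median ratios (from genes averaging an FPKM of 2 or more), a pseudocount of 0.1 or 0.01, no filter or one at a mean of 1, repeated symbols left out, changes measured from the median of the chromosome, and a 3-fold threshold.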

Additional observations from a re-analysis of the deposited data

How the results depend on the processing

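Of 3 collagen genes past 2-fold (3 higher, 0 lower), the counts stayed within 1.5 times with the FPKM as deposited, median-ratio scaling, no filter, a mean of at least 1, repeated symbols left out and changes measured from the chromosome median. With a pseudocount of 0.1 they were 13 genes (8 higher, 5 lower; 11.4% and 12% of all genes), and with 0.01 they were 15 (8 higher, 7 lower; 12.9% and 13.4% of all genes), since low values then weigh more. A 3-fold threshold left 1 higher gene, Col4a1 (1.02% of all genes were higher and 0.923% lower), and the counting interval, chosen after seeing the data, gave 13 (9 higher, 4 lower; 19.7% and 34.5% of all genes). The median change of basement membrane collagens was -0.013 with no filter, which lets in 4 genes near 0, and 1.88 from the chromosome median. That of fibrillar genes was 0.80 with a pseudocount of 0.01. That of other collagens was -0.41 with 0.1 and -0.55 with 0.01. The 8 collagen genes at an FPKM of at least 1 in either library kept their direction under every alternative that gave them a value. No paired analysis was possible because each genotype has 1 RNA-seq library. Depth limits the 20 collagen genes with fewer than 10 fragments in all, which were not read against counting error.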
